A study of Rattus norvegicus with 15 samples.

Results

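The proteasome subunit genes of the rat liver were followed from control to cirrhosis and to cirrhosis treated with eplerenone. Their members were all protein coding rows of the deposited count table whose symbol opens with Psma, Psmb, Psmc, Psmd, Psme, Psmf or Psmg and a number, without the immunoproteasome genes Psmb8, Psmb9 and Psmb10. This gave 47 of 32623 rows, and 44 of the 47 passed the filter on low counts, among 13628 protein coding genes that passed it. The rule used names and biotype and no measured value. It also takes in Psmc3ip and Psme3ip1, whose products bind other proteins and are not subunits of the particle.

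Liver RNA was sequenced after poly(A) selection, and raw counts per gene were deposited. Control rats received no treatment (4 rats analysed here of 5 in the labels). The cirrhosis group (5 rats) inhaled CCl4, which injures hepatocytes, and drank phenobarbital at 0.35 g/L for 12 weeks. The cirrhosis & eplerenone group (5 rats) received the same and, from week 8 to week 12, eplerenone at 100 mg/kg, an antagonist of the mineralocorticoid receptor. All were male Wistar rats of matched age, and in both CCl4 groups the liver was taken 7 to 10 days after the last CCl4. Phenobarbital was given to both CCl4 groups and not to control, so its part and that of CCl4 cannot be told apart. Rats for sequencing were selected by how well cirrhosis induction or eplerenone treatment had worked, which limits the groups as a sample of treated rats. Samples of a group carry different animal labels, so p-values measure the spread between rats. Counted reads per rat ran from 16157491 to 21574767, and the members took 0.288 to 0.479% of them. Levels are given as FPM, counts per 1000000 reads of a library size that was scaled by the trimmed mean of M values (TMM, factors 0.847 to 1.40). At 3 counts this scale reaches 0.121 to 0.191 FPM, which covers counting error only. FPM is not divided by transcript length, so levels are compared between rats and not between genes. All 10 hepatocyte markers checked, Alb and Apoa1 among them, were counted in these livers.

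The proteasome is the protease that degrades most ubiquitin-tagged proteins in the cytosol and nucleus. Its core particle is a barrel of alpha rings, which form the gate, around beta rings, in which Psmb5, Psmb6 and Psmb7 carry the active sites. The regulatory particle sits on the core: its base holds a ring of ATPases that unfold the substrate and receptors that bind ubiquitin, and its lid holds the deubiquitinase Psmd14. Dedicated chaperones build both particles, and separate activators (the Psme products) and an inhibitor (Psmf1) bind the ends of the core. In many cells the transcription factor NRF1 (Nfe2l1) raises subunit genes together through antioxidant response elements in their promoters, and CCAAT boxes bound by NF-Y are frequent in these promoters as well.

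The promoter bases before the transcript start are shown for the genes that later pass the test (Psmg3, Psmc6, Psma5) and for catalytic subunits with an antioxidant response element (Psmb5, Psmb6). They come from RefSeq in the build GRCr8, read 5′ to 3′ on the gene's strand, and are the 250 bases before the start of the gene. Capitals mark TGACNNNGC, the core of the antioxidant response element, and CCAAT, each searched on both strands, so that ATTGG is CCAAT on the other strand. The 5 stretches are chr15:32047380-32047629 on the minus strand (Psmb5), chr10:55737638-55737887 on the plus strand (Psmb6), chr2:198584255-198584504 on the plus strand (Psma5), chr12:19923038-19923287 on the plus strand (Psmg3) and chr15:21022064-21022313 on the plus strand (Psmc6).
Psmb5: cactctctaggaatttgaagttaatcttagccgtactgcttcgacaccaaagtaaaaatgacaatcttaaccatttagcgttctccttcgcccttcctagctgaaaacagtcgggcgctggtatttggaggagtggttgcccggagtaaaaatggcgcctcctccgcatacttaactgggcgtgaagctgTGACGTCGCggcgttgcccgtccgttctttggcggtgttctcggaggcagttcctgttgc
Psmb6: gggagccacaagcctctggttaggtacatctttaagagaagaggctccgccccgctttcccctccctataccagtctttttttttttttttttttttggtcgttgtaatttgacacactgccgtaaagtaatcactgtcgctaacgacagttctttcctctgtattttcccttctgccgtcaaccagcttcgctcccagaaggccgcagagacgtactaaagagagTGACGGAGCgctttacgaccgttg
Psma5: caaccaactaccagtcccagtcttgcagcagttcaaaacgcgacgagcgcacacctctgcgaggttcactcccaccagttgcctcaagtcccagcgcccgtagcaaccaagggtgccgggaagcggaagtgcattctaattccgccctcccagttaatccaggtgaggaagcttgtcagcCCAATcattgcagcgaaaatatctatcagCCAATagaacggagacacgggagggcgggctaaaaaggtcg
Psmg3: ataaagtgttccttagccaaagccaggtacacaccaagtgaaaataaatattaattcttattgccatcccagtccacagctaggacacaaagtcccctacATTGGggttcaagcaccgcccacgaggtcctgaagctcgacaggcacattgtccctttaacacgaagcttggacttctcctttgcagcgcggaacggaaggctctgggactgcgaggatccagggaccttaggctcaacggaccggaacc
Psmc6: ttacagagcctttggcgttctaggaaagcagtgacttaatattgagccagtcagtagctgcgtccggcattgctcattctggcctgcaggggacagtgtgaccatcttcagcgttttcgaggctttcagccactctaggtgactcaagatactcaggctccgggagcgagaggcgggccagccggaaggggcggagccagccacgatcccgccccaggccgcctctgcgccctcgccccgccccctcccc
The element lay 60 bases before the start in Psmb5 and 24 bases before it in Psmb6. Psma5 held CCAAT 70 and 41 bases before the start, Psmg3 held it 150 bases before, and the Psmc6 stretch held neither motif. RefSeq promoters were matched for 42 of the 47 members, not for Psma7, Psmb11, Psmd6, Psmd12 and Psmd14. The element was found in 7 of the 42 (16.7%, Psma3l, Psmb2, Psmb5, Psmb6, Psmd1, Psmd9 and Psme4) and in 10.1% of 33469 rat promoters of the same length. CCAAT was found in 21 of the 42 (50%) and in 34% of all. A match is a description of these letters only.

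In cirrhosis the median over the members lay near the control level: 22 members were higher and 22 lower, with a median log2 fold change (log2FC) of 0.04 against -0.01 over all protein coding genes tested. Single cirrhosis rats differed from that level in both directions, as given below. A gene was called a differentially expressed gene (DEG) when its false discovery rate (FDR, Benjamini-Hochberg) was below 0.05 in both edgeR's quasi-likelihood test and DESeq2. In cirrhosis against control 2 of 44 members were DEG, the assembly chaperone gene Psmg3 (higher) and the base ATPase gene Psmc6 (lower), where 20.6% of protein coding genes were called. The groups did not overlap for 3 members, all lower in cirrhosis (Psmc6, Psmd12 and Psmg1), against 20.5% of all genes. No member reached an absolute log2FC of 1, a size reached by 24.8% of protein coding genes. The 95% interval lay within 2-fold for 40 of 44 members and for 42.5% of protein coding genes. The genes set against the members were not matched to them for level. The SE ran from 0.13 to 0.34 over the members and from 0.11 to 2.66 over protein coding genes. Replicate numbers are those of the sample titles, and values are listed in the order of control replicates 2 to 5 and replicates 1 to 5 of both CCl4 groups.

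Psmg3 (ENSRNOG00000001273, chromosome 12), a chaperone of early core assembly, stood at 18.8, 15.6, 15.7 and 13.2 FPM in control rats, 33.2, 17.8, 32.4, 27.6 and 19.8 FPM in cirrhosis and 12.3, 12.0, 16.5, 15.9 and 19.1 FPM with added eplerenone. Cirrhosis replicates 1, 3 and 4 lay above every control rat and every rat given eplerenone, and cirrhosis replicates 2 and 5 lay within or just above the range of the others. Its log2FC in cirrhosis against control was 0.72 (SE 0.22), with an edgeR FDR of 0.0305 and a DESeq2 FDR of 0.00979. In cirrhosis & eplerenone against cirrhosis its log2FC was -0.78 (SE 0.20), which was not a DEG (edgeR FDR 0.312, DESeq2 FDR 0.0547), and against control it was -0.06. The cirrhosis call of Psmg3 was lost without any 1 of control replicates 3, 4 and 5 and cirrhosis replicates 1, 3 and 4, with log2FC from 0.64 to 0.72 in those fits, and it was 0.49 and not called without both cirrhosis replicates 1 and 3. Psmg4, its partner chaperone, was also highest in cirrhosis replicates 1, 3 and 4, with 32.8, 18.4, 44.4, 25.3 and 18.5 FPM in cirrhosis, and had a log2FC of 0.72 (SE 0.26), an FDR of 0.0353 in DESeq2 and 0.0626 in edgeR, so it was not a DEG.

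Psmc6 (ENSRNOG00000007203, chromosome 15), an ATPase of the base, stood at 84.1, 96.0, 89.6 and 94.8 FPM in control rats, 71.1, 68.1, 63.7, 59.1 and 74.2 FPM in cirrhosis and 70.9, 85.9, 54.8, 64.0 and 63.8 FPM with added eplerenone. All 5 cirrhosis rats lay below all 4 control rats, and eplerenone replicate 2 alone of its group reached into the control range. The log2FC was -0.44 (SE 0.15, edgeR FDR 0.0459, DESeq2 FDR 0.0182) in cirrhosis against control and -0.42 (SE 0.15) in cirrhosis & eplerenone against control, where edgeR's FDR was 0.105 and DESeq2's 0.0338. The cirrhosis call rested on the full set of rats: with 1 rat left out it held in 3 of 14 fits, those without cirrhosis replicate 5, eplerenone replicate 2 or eplerenone replicate 3, and the log2FC stayed between -0.48 and -0.38. The call was also lost with DESeq2 size factors in edgeR (-0.41), without a filter (-0.42), with at least 10 counts in every rat (-0.38), without both cirrhosis replicates 1 and 3 (-0.42) and with total counts (-0.15). The other 5 ATPase genes, Psmc1 to Psmc5, had log2FC from 0.10 to 0.35 in the same comparison, none a DEG.

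Psma5 (ENSRNOG00000019868, chromosome 2), a subunit of the alpha ring, stood at 66.4, 60.7, 71.8 and 69.6 FPM in control rats, 71.6, 52.6, 64.5, 43.8 and 57.1 FPM in cirrhosis and 44.2, 51.4, 42.5, 44.4 and 39.2 FPM with added eplerenone. Every rat given eplerenone lay below every control rat, and the cirrhosis rats spanned both ranges. It was the 1 member of 44 that was a DEG in cirrhosis & eplerenone against control, where 5.33% of protein coding genes were called: log2FC -0.60 (SE 0.15, edgeR FDR 0.0327, DESeq2 FDR 0.00411). Its log2FC was -0.21 in cirrhosis against control and -0.39 in cirrhosis & eplerenone against cirrhosis, neither a DEG. The call was lost without any 1 of control replicates 2 to 5 and eplerenone replicates 1, 3, 4 and 5, with log2FC from -0.65 to -0.56 in those fits. It was also lost without a filter (-0.58), with at least 10 counts in every rat (-0.56) and with total counts (-0.28). RefSeq lists 1 named pseudogene of Psma5 and 2 of Psmc6. A read with several mapping places added to the count of every one of those places, so the counts of the 19 members with such copies (52 copies in all) are less certain.

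**Figure D1:**
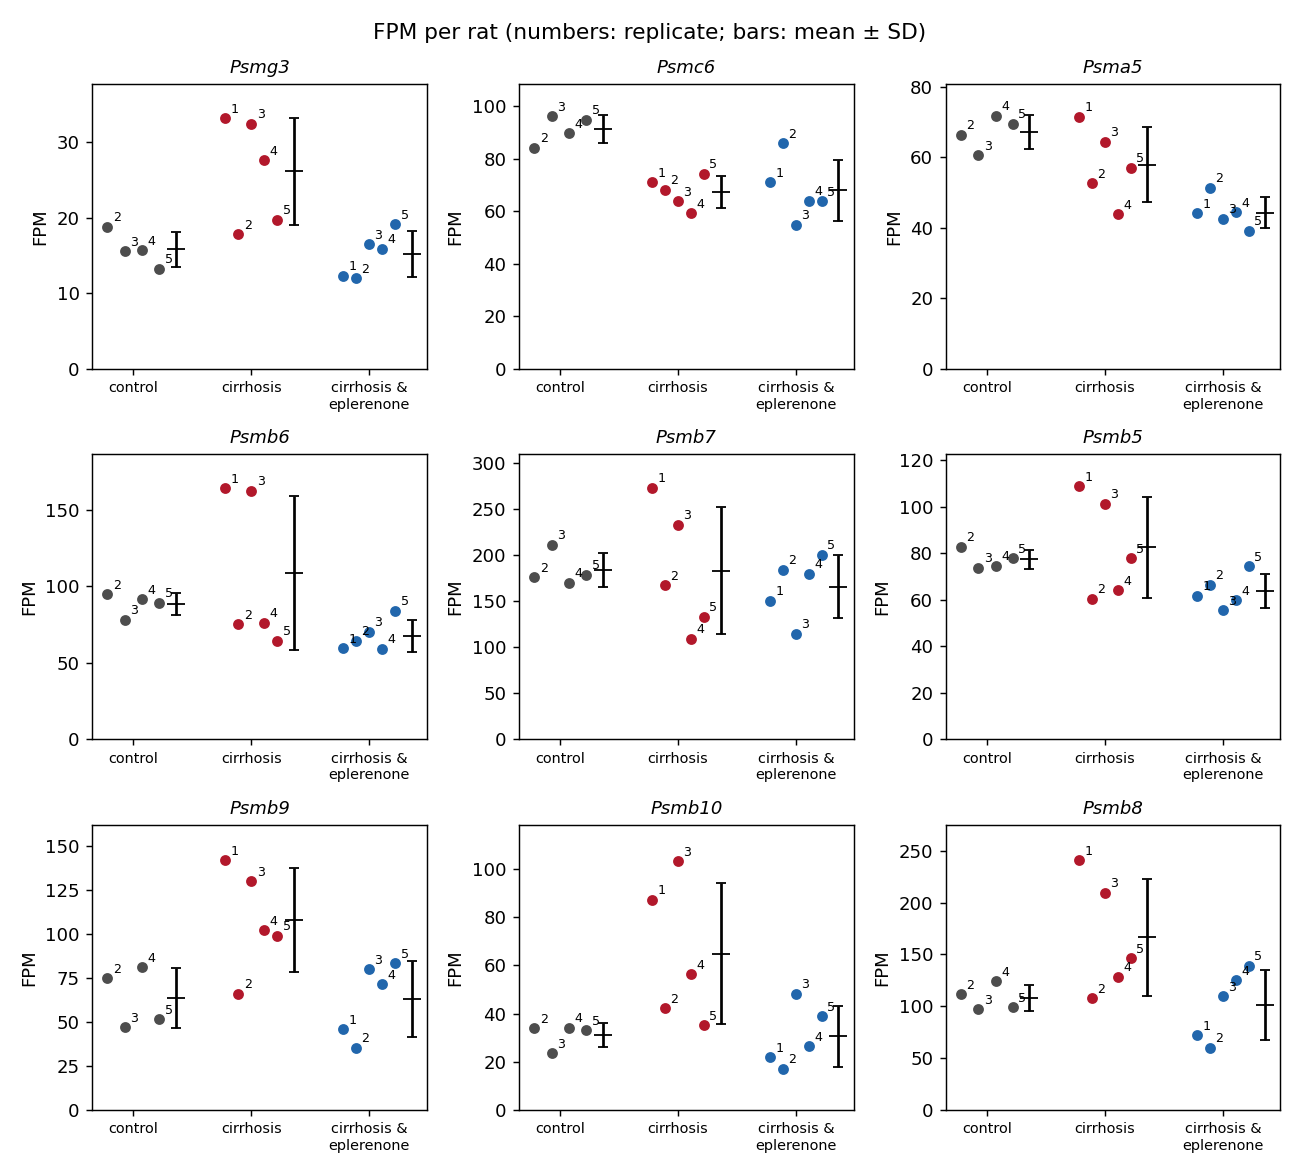
FPM (vertical axis, from 0) of 9 genes in each rat, labelled by replicate number, with mean ± SD per group (control n = 4, cirrhosis n = 5, cirrhosis & eplerenone n = 5). Cirrhosis replicates 1 and 3 hold the highest cirrhosis values of Psmg3, Psma5, the catalytic core genes and the immunoproteasome genes, while all cirrhosis rats lie below control for Psmc6.

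Eplerenone moved no member past the test against untreated cirrhosis, yet most point estimates were lower. With edgeR and DESeq2 together 0 of 44 members were DEG in cirrhosis & eplerenone against cirrhosis, where 0.0147% of protein coding genes were called. By edgeR alone 0 members passed against 0.0147% of genes, and by DESeq2 alone 0 against 0.492%. The groups did not overlap for 0 members, against 0.947% of genes. The log2FC was below 0 for 38 of 44 members, with a median of -0.24 against 0.01 over all protein coding genes. At an unadjusted p under 0.05 in edgeR 13 members were lower and 0 higher, where 7.62% of protein coding genes were lower at that p. Of these 13, 7 belong to the core particle, 3 to the base, 2 to the chaperones and 1 to the activators. With cirrhosis replicates 1 and 3 both left out, a setting chosen after their values were seen, 31 of 44 were lower and 0 were DEG.

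Against control the same rats gave a log2FC below 0 for 40 of 44 members, with a median of -0.20 against 0.01 over all protein coding genes. The groups did not overlap for 6 members, all lower after eplerenone (Psma5, Psmb2, Psmd6, Psmd12, Psmg1 and Psmd9), against 11.1% of genes. This comparison shares its treated rats with the last one and its control rats with the first, so the 3 do not count as separate evidence. The share of lower values depended on the scaling. When libraries were scaled by total counts instead of TMM, the median log2FC over the whole set of tested genes moved by 0.29 in cirrhosis against control and by 0.32 in cirrhosis & eplerenone against control, and by 0.03 between both CCl4 groups. On that scale 8 of 44 members had a log2FC below 0 for cirrhosis and 14 of 44 for cirrhosis & eplerenone against control, and 7 members were called for cirrhosis where 24.3% of protein coding genes were. Of the members 38 of 44 were again lower in cirrhosis & eplerenone against cirrhosis. Relative to the median of all genes on that scale, the members' median was 0.03 for cirrhosis and -0.21 for cirrhosis & eplerenone against control, and -0.25 for eplerenone between both CCl4 groups.

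**Figure D2:**
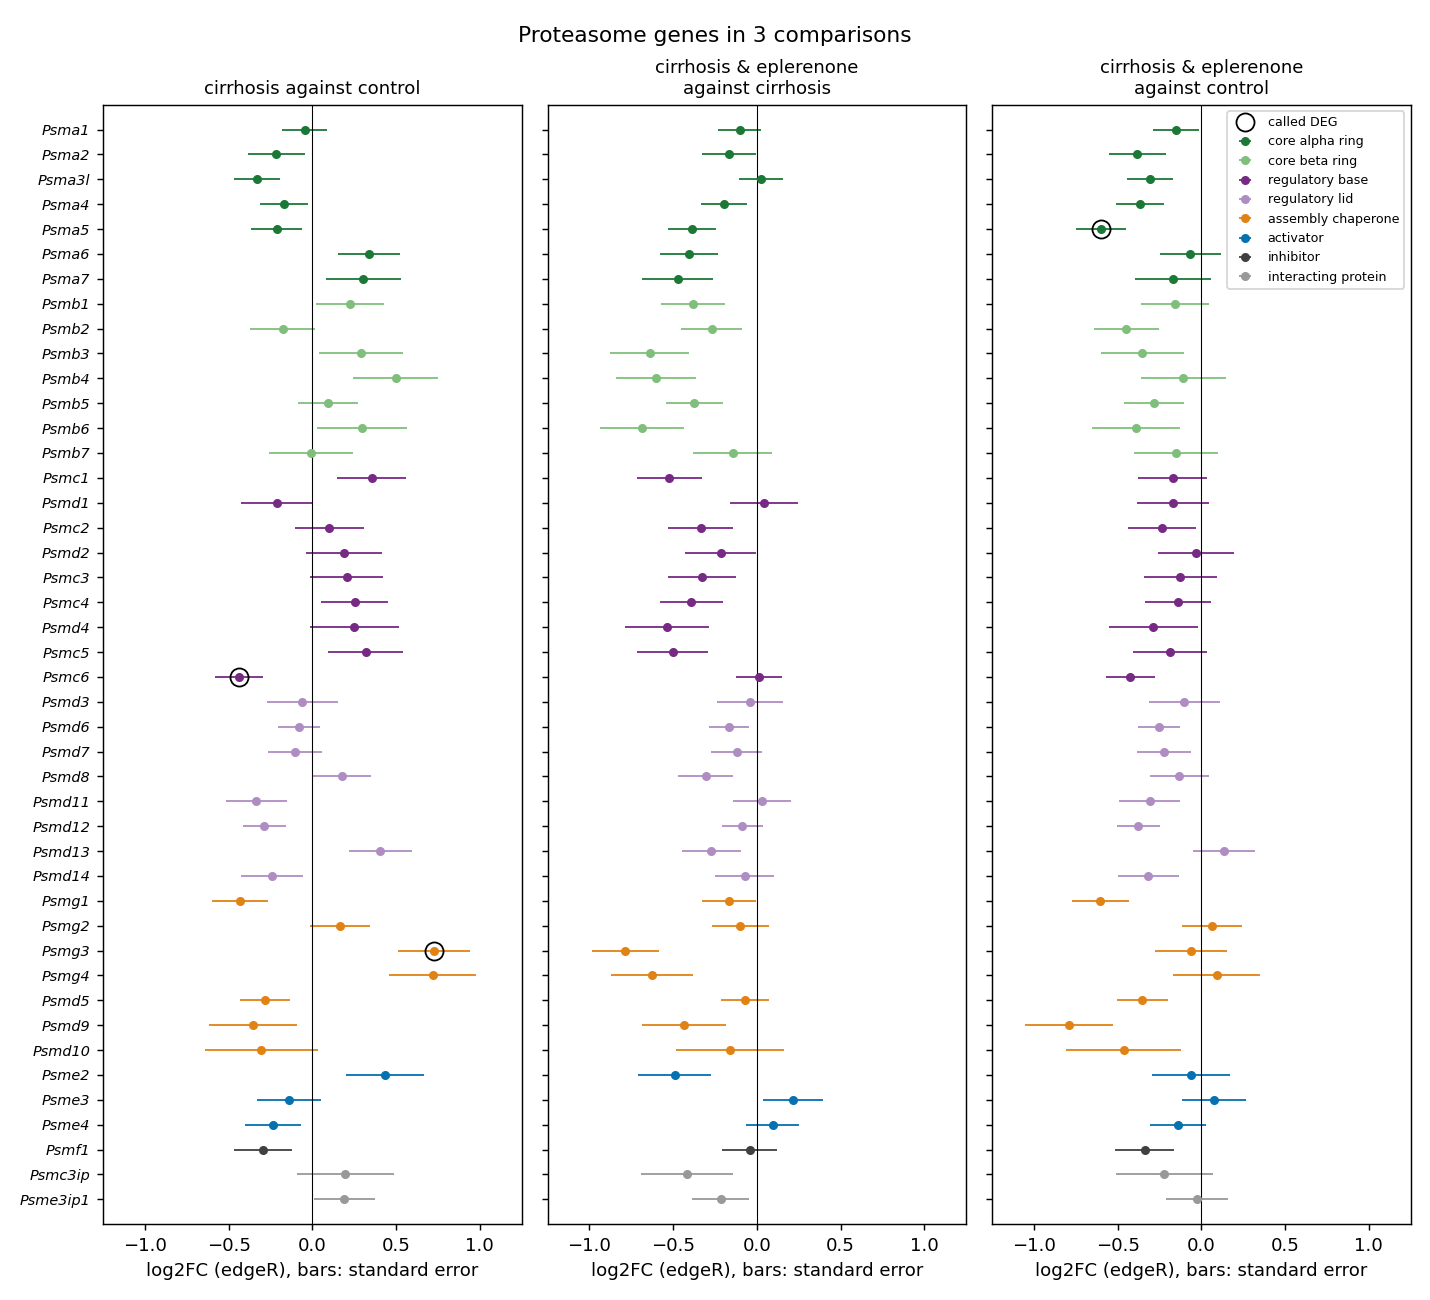
log2FC from edgeR (horizontal axis, TMM scaling) of the 44 tested members in 3 comparisons, ordered and coloured by role, with bars of 1 standard error and rings around the DEG. Values spread evenly around 0 in cirrhosis against control and lie mostly below 0 after eplerenone, where with total counts 14 of 44 instead of 40 of 44 lie below 0 against control.

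The alpha ring, which gates the core, was split in cirrhosis. Of its 7 tested genes 5 had a lower and 2 a higher log2FC against control, with a median of -0.17. Psma6 was the highest (0.34, SE 0.18) and Psma3l, which RefSeq lists as a synonym of Psma3, the lowest (-0.33, SE 0.14). Psma6 stood at 114, 92.6, 97.8 and 95.6 FPM in control rats, 154, 109, 168, 97.4 and 103 FPM in cirrhosis and 98.0, 91.8, 82.2, 92.5 and 114 FPM with added eplerenone. Above all other rats lay cirrhosis replicates 1 and 3, and the remaining rats of the 3 groups overlapped. Psma3l stood at 133, 117, 135 and 126 FPM in control rats, 103, 91.4, 105, 89.5 and 118 FPM in cirrhosis and 117, 105, 104, 99.7 and 90.6 FPM with added eplerenone. Cirrhosis replicate 5 reached the control range and the other 4 cirrhosis rats lay below it, and DESeq2 called the gene (FDR 0.0413) while edgeR did not (FDR 0.0961). After eplerenone all 7 alpha genes had a lower log2FC than control, with a median of -0.30 and 4 at an unadjusted p under 0.05 in edgeR (Psma2, Psma3l, Psma4 and Psma5), where 6.3% of protein coding genes were lower at that p. The testis form Psma8 had 0 to 4 counts per rat and failed the filter.

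The beta ring, which holds the active sites, was higher in 5 of 7 genes in cirrhosis by log2FC, with a median of 0.22. With edgeR and DESeq2, 0 of the 7 passed in either tool, where 20.6 and 28.2% of protein coding genes passed. At an unadjusted p under 0.05 in edgeR stood 0 of the 7, against 37.6% of protein coding genes. The caspase-like subunit gene Psmb6 stood at 94.6, 78.1, 91.3 and 89.1 FPM in control rats, 164, 75.0, 162, 76.1 and 64.3 FPM in cirrhosis and 59.6, 64.3, 70.2, 59.1 and 83.9 FPM with added eplerenone. The highest were cirrhosis replicates 1 and 3, far above all other rats, and the other 3 cirrhosis rats lay below the lowest control rat. The mean was 108 ± 50.3 FPM (SD, n = 5) in cirrhosis against 88.3 ± 7.16 FPM (SD, n = 4) in control, a log2FC of 0.30 (SE 0.27).

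The chymotrypsin-like subunit gene Psmb5 stood at 82.9, 73.9, 74.6 and 78.0 FPM in control rats, 109, 60.5, 101.3, 64.1 and 78.0 FPM in cirrhosis and 61.7, 66.6, 55.6, 59.8 and 74.6 FPM with added eplerenone. The trypsin-like subunit gene Psmb7 stood at 176, 211, 169.9 and 178 FPM in control rats, 273, 167, 233, 109 and 133 FPM in cirrhosis and 150.1, 184, 115, 179 and 200.3 FPM with added eplerenone. In both, cirrhosis replicates 1 and 3 were the highest of all rats and the groups overlapped. Their log2FC was 0.09 (SE 0.18) for Psmb5 and -0.01 (SE 0.25) for Psmb7 in cirrhosis against control. After eplerenone the log2FC against cirrhosis was -0.68 (SE 0.25) for Psmb6, -0.37 (SE 0.17) for Psmb5 and -0.14 (SE 0.24) for Psmb7, with edgeR FDR of 0.314, 0.336 and 0.771.

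Among the structural beta genes Psmb4 had the highest and Psmb2 the lowest log2FC in cirrhosis (0.50, SE 0.25, and -0.18, SE 0.19). Psmb4 stood at 177, 150.2, 188 and 145 FPM in control rats, 308, 167, 360.3, 180.2 and 150.3 FPM in cirrhosis and 137, 135, 144, 149.6 and 201 FPM with added eplerenone. The same 2 cirrhosis rats lay above all others, and eplerenone replicate 5 lay above the rest of its group. Psmb2 stood at 84.0, 72.5, 83.9 and 80.8 FPM in control rats, 93.7, 57.6, 88.1, 45.0 and 70.6 FPM in cirrhosis and 60.002, 69.5, 61.0, 51.1 and 52.7 FPM with added eplerenone. No rat given eplerenone reached the lowest control rat, and the cirrhosis rats ran from below both to above both groups. Psmb1 and Psmb3 had log2FC of 0.22 and 0.29 in cirrhosis against control and of -0.38 and -0.64 in cirrhosis & eplerenone against cirrhosis. The thymus form Psmb11 had 0 to 2 counts per rat and failed the filter.

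The base of the regulatory particle was higher in 7 of 9 genes in cirrhosis by log2FC, with a median of 0.20, and its DEG, Psmc6, was lower. At an unadjusted p under 0.05 in edgeR 0 of the 9 were higher and 1 lower, where 37.6% of protein coding genes passed in either direction. The mean log2 FPM of the base was 7.19, 6.47, 7.11, 6.32 and 6.54 in cirrhosis replicates 1 to 5. In control it was 6.64, 6.63, 6.70 and 6.68, so replicates 2, 4 and 5 lay below every control rat. Psmc1, the base gene with the highest log2FC, stood at 109, 117, 119 and 108 FPM in control rats, 203, 119, 185, 105 and 110.4 FPM in cirrhosis and 92.9, 103, 86.1, 98.4 and 124 FPM with added eplerenone. No rat reached cirrhosis replicates 1 and 3, and the other 3 cirrhosis rats lay within or near the control range. The ubiquitin receptor gene Psmd4 stood at 107, 82.9, 97.4 and 87.8 FPM in control rats, 149.8, 72.5, 173, 70.2 and 92.7 FPM in cirrhosis and 67.1, 63.3, 86.9, 62.0 and 106 FPM with added eplerenone. The same pair of cirrhosis rats was highest, cirrhosis replicates 2 and 4 were below control, and the log2FC was 0.25 (SE 0.27). The scaffold genes Psmd1 and Psmd2 had log2FC of -0.21 and 0.19. After eplerenone 7 of the 9 base genes had a lower log2FC than cirrhosis (median -0.33) and 9 of 9 a lower one than control (median -0.17).

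The lid, which removes the ubiquitin chain, was lower in 6 of 8 genes in cirrhosis by log2FC, with a median of -0.09. None of the 8 passed in edgeR or DESeq2, where 20.6 and 28.2% of protein coding genes passed. Of the 8, 2 had an unadjusted p under 0.05 in edgeR (Psmd12 and Psmd13), where 37.6% of protein coding genes did. The deubiquitinase gene Psmd14 stood at 25.5, 28.0, 30.5 and 33.9 FPM in control rats, 29.0, 25.1, 23.7, 22.2 and 24.7 FPM in cirrhosis and 27.9, 27.3, 28.6, 19.2 and 15.4 FPM with added eplerenone. Eplerenone replicates 4 and 5 were the lowest of all rats, the groups overlapped, and the log2FC against control was -0.24 (SE 0.18) in cirrhosis and -0.32 (SE 0.18) in cirrhosis & eplerenone. Psmd13 had the highest log2FC of the lid in cirrhosis (0.41, SE 0.19) and was the only one of the 8 above 0 in cirrhosis & eplerenone against control (0.13). It stood at 57.1, 59.2, 55.5 and 66.2 FPM in control rats, 107, 59.0, 92.2, 73.2 and 63.1 FPM in cirrhosis and 57.1, 64.5, 54.7, 69.8 and 80.5 FPM with added eplerenone. Highest were cirrhosis replicates 1 and 3, followed by eplerenone replicate 5. Psmd11, a lid scaffold gene, had the lowest log2FC (-0.34, SE 0.18) and stood at 95.2, 112, 103 and 114 FPM in control rats, 100.3, 78.5, 89.8, 61.8 and 90.6 FPM in cirrhosis and 83.6, 94.6, 56.8, 99.2 and 95.2 FPM with added eplerenone. Cirrhosis replicate 4 and eplerenone replicate 3 were lowest, and of both CCl4 groups cirrhosis replicate 1 and eplerenone replicates 4 and 5 reached the lowest control rat. Psmd3, Psmd6, Psmd7, Psmd8 and Psmd12 ran from -0.29 to 0.17 in cirrhosis against control. Psmd12 was lower in every rat of both CCl4 groups than in every control rat, with a log2FC of -0.29 in cirrhosis and -0.38 in cirrhosis & eplerenone (edgeR FDR 0.116 and 0.105, DESeq2 FDR 0.0810 and 0.0236).

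The assembly chaperones spanned a wider range of log2FC than either particle, from -0.43 to 0.72 in cirrhosis against control. Core chaperone genes lay at both ends, Psmg3 and Psmg4 high and Psmg1 low. Psmg1 stood at 43.9, 44.3, 51.9 and 51.1 FPM in control rats, 39.8, 31.8, 38.9, 29.4 and 36.8 FPM in cirrhosis and 25.2, 37.6, 23.7, 38.4 and 32.6 FPM with added eplerenone. Every rat of both CCl4 groups lay below every control rat. Its log2FC was -0.43 (SE 0.17) in cirrhosis and -0.60 (SE 0.17) in cirrhosis & eplerenone, the second with an edgeR FDR of 0.0501 and a DESeq2 FDR of 0.0162. Psmg2, which pairs with Psmg1 in the cell, had log2FC of 0.16 and 0.07. Of the base chaperones, Psmd9 had the lowest log2FC of all members in cirrhosis & eplerenone against control (-0.79, SE 0.26), with no overlap of the groups and an edgeR FDR of 0.0941. Psmd5 and Psmd10 had log2FC of -0.28 and -0.30 in cirrhosis, and Psmd10 rested on 35 to 118 counts per rat.

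The 3 tested activator genes and the inhibitor gene gave 0 DEG in cirrhosis against control, 0 by edgeR, 0 by DESeq2 and 0 at an unadjusted p under 0.05 in edgeR. Of protein coding genes 20.6% were DEG, 20.6% passed by edgeR, 28.2% passed by DESeq2 and 37.6% had such a p. Psme2, a subunit of the interferon-inducible activator, stood at 106, 79.2, 109 and 80.3 FPM in control rats, 163, 91.6, 175, 92.5 and 110.5 FPM in cirrhosis and 71.9, 68.4, 108, 93.2 and 108 FPM with added eplerenone. Again cirrhosis replicates 1 and 3 were highest, the groups overlapped, and the log2FC was 0.43 (SE 0.23) in cirrhosis against control and -0.49 (SE 0.22) in cirrhosis & eplerenone against cirrhosis. Its partner Psme1 had 0 to 9 counts per rat and failed the filter, which says only that few reads were assigned to that row. Psme4 (PA200), a nuclear activator, stood at 99.6, 102, 81.7 and 113 FPM in control rats, 75.0, 87.9, 71.4, 84.9 and 102 FPM in cirrhosis and 86.4, 96.7, 66.9, 104 and 95.7 FPM with added eplerenone. Its order was not that of Psme2: cirrhosis replicates 1 and 3 were among the lowest rats, and the log2FC was -0.23 (SE 0.17). Psme3 had log2FC of -0.14 and 0.08 against control.

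Psmf1, the inhibitor gene, stood at 56.8, 60.7, 66.3 and 56.5 FPM in control rats, 47.9, 36.8, 48.8, 45.8 and 65.5 FPM in cirrhosis and 35.5, 47.7, 49.3, 46.5 and 58.6 FPM with added eplerenone. Cirrhosis replicate 5 lay within the control range and the other cirrhosis rats below it, with a log2FC of -0.30 (SE 0.17). Of the interacting proteins, Psmc3ip, known for its part in meiotic recombination, stood at 4.83, 3.41, 3.42 and 3.31 FPM in control rats, 4.99, 2.82, 5.72, 3.08 and 4.88 FPM in cirrhosis and 2.66, 3.004, 4.82, 2.48 and 3.06 FPM with added eplerenone. Psme3ip1, a nuclear partner of Psme3, stood at 18.0, 23.2, 24.2 and 27.4 FPM in control rats, 31.1, 20.6, 29.3, 26.8 and 24.7 FPM in cirrhosis and 21.7, 18.0, 19.5, 24.7 and 30.1 FPM with added eplerenone. The groups overlapped for both, with log2FC of 0.20 (SE 0.29) and 0.19 (SE 0.18) in cirrhosis against control.

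**Figure D3:**
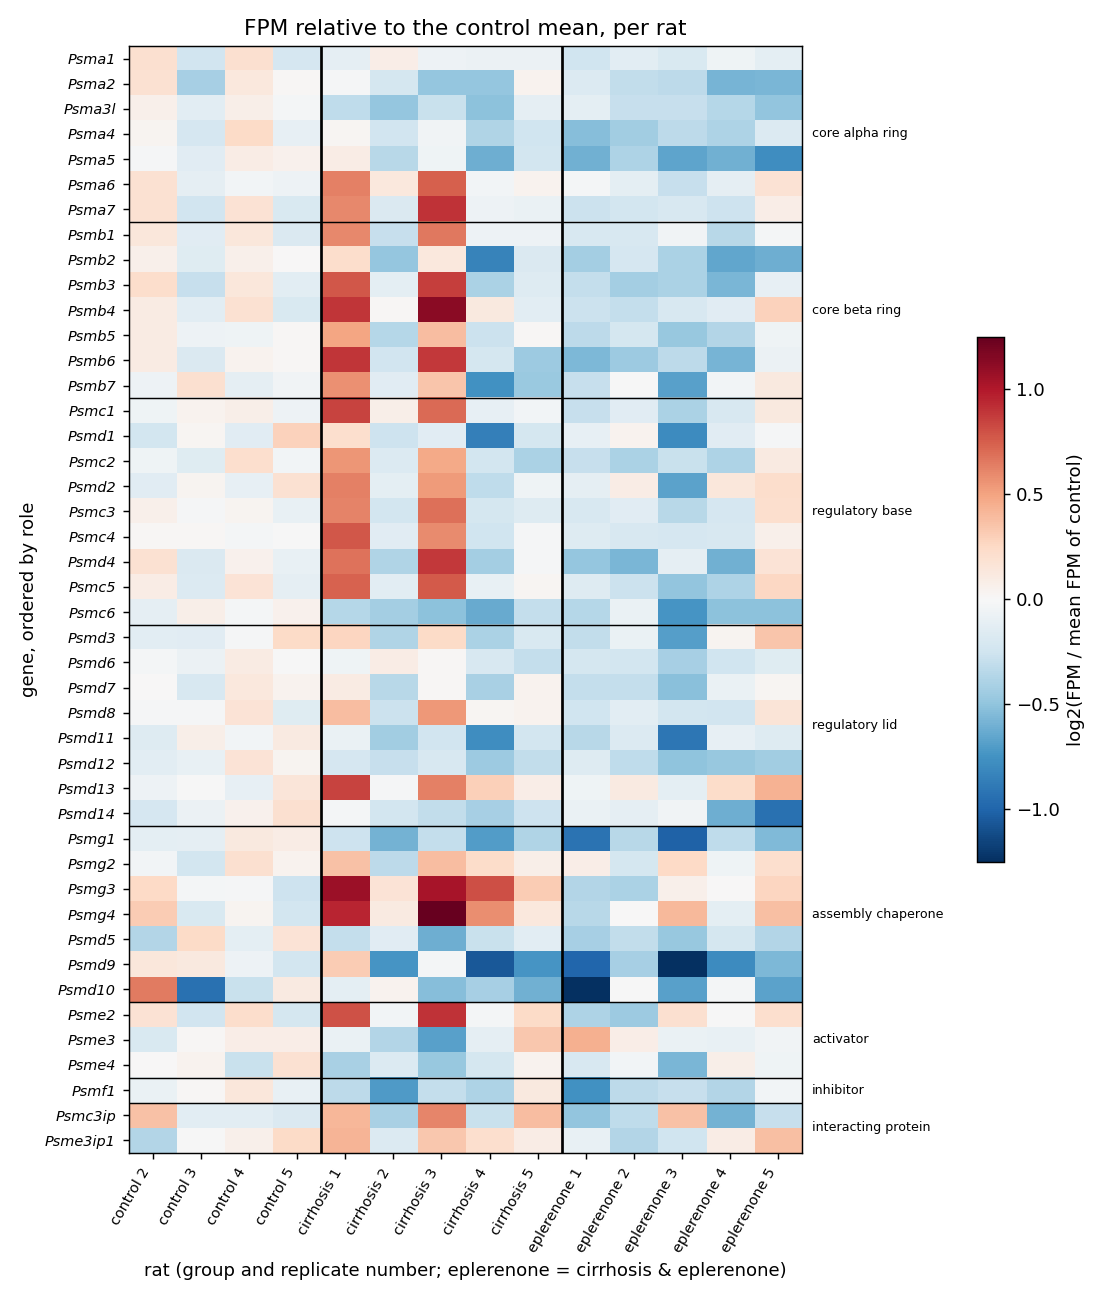
Each tested member (rows, by role) in each rat (columns, by group and replicate), coloured by the log2 ratio of its FPM to the mean FPM of control. Cirrhosis replicates 1 and 3 are red across most beta ring and base genes and pale or blue for Psmc6, Psmd12 and most of the alpha ring.

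Core and regulatory particles were compared within each rat by the mean log2 FPM over their tested genes, 14 for the core and 17 for the regulatory particle. For control the core mean was 6.72 ± 0.13 (SD, n = 4), for cirrhosis 6.74 ± 0.34 (SD, n = 5) and for cirrhosis & eplerenone 6.44 ± 0.08 (SD, n = 5). Control rats stood at 6.83, 6.56, 6.82 and 6.65, cirrhosis rats at 7.11, 6.52, 7.09, 6.40 and 6.57 and rats given eplerenone at 6.41, 6.46, 6.38, 6.36 and 6.56. All 5 rats given eplerenone lay below the lowest control rat, the highest of them by less than the rounding shown, while the cirrhosis rats lay on both sides of the control range. For the regulatory particle the same groups gave 6.43 ± 0.06, 6.43 ± 0.30 and 6.22 ± 0.16, with overlapping ranges. Control rats stood there at 6.38, 6.39, 6.48 and 6.48 and cirrhosis rats at 6.79, 6.22, 6.71, 6.12 and 6.30. No cirrhosis rat lay within the control range: replicates 1 and 3 lay above it and replicates 2, 4 and 5 below it. Of the rats given eplerenone replicate 5 alone, at 6.43, reached the control range. Core and regulatory levels differ from each other also by gene length, so only their change between rats is read.

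Control rats had a difference of core and regulatory means of 0.28 ± 0.14, cirrhosis rats of 0.31 ± 0.04 and rats given eplerenone of 0.21 ± 0.10, and the 3 ranges overlapped. By median log2FC the core stood at 0.04 in cirrhosis against control, at -0.38 in cirrhosis & eplerenone against cirrhosis and at -0.29 in cirrhosis & eplerenone against control. The regulatory particle stood at 0.10, -0.22 and -0.19 in the same comparisons. With total counts these medians were 0.31, -0.33 and 0.02 for the core and 0.37, -0.21 and 0.11 for the regulatory particle, so the sign against control after eplerenone followed the scaling. With cirrhosis replicates 1 and 3 both left out, the medians in cirrhosis & eplerenone against cirrhosis were -0.10 for the core and -0.01 for the regulatory particle, and in cirrhosis against control -0.19 and -0.20.

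**Figure D4:**
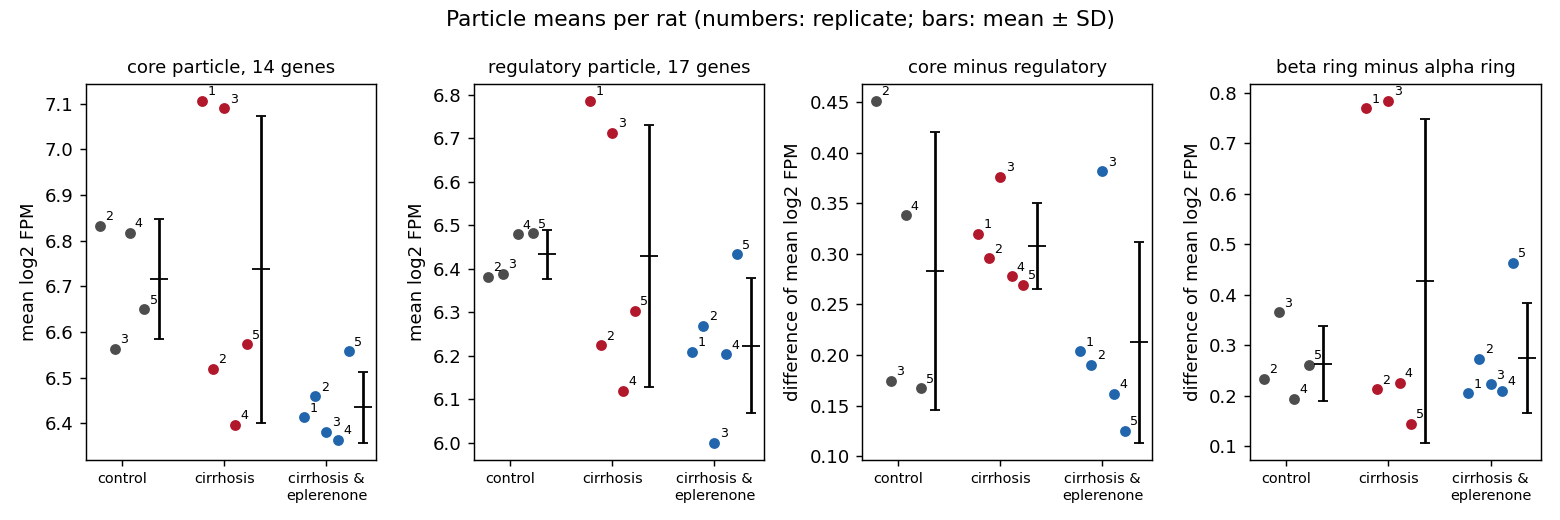
Mean log2 FPM per rat over the 14 core and 17 regulatory genes, and the differences of core and regulatory means and of beta and alpha ring means (vertical axes not from 0), with replicate numbers and mean ± SD per group. Cirrhosis replicates 1 and 3 reach core means of 7.11 and 7.09 and lie apart in the beta minus alpha difference, while core minus regulatory overlaps in all 3 groups.

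Cirrhosis rats did not form 1 level. In cirrhosis replicates 1 and 3, 26 and 24 of the 44 members lay above the highest control rat, against 1, 4 and 4 in replicates 2, 4 and 5. In replicates 1 and 3, 6 and 11 members lay below the lowest control rat, so members differed in direction within a rat. In replicates 2, 4 and 5 this held for 26, 27 and 15 members. The same counts were not made over all protein coding genes, so they are not read as particular to the members. The beta ring mean was 7.49, 6.63, 7.48, 6.51 and 6.65 in cirrhosis replicates 1 to 5 and the alpha ring mean 6.72, 6.41, 6.70, 6.28 and 6.50. The beta minus alpha difference was thus 0.77, 0.21, 0.78, 0.23 and 0.15, against 0.23, 0.37, 0.19 and 0.26 in control. The base minus lid difference was 0.86, 0.53, 0.84, 0.43 and 0.50 in cirrhosis and 0.55, 0.52, 0.46 and 0.43 in control, again with replicates 1 and 3 apart. Both rats carry an animal label that opens with 15, as does cirrhosis replicate 2, which was not high.

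The median coefficient of variation of the 44 members was 11.04% for control rats, 25.6% for cirrhosis rats and 15.7% for rats given eplerenone, with the control value from the 4 rats analysed here after a control sample had been set aside by the study for standing apart. Over all protein coding genes it was 19.7%, 32.3% and 28.9%. The median over the members was the lower of both in each group, though the protein coding genes were not matched to the members for level. Within the members the cirrhosis group was the most variable. Ribosomal protein genes, a list added after values were seen, were set beside the members. Over 84 of them the mean log2 FPM was 8.20, 7.54, 8.38, 7.76 and 7.25 in cirrhosis replicates 1 to 5, 7.41, 7.05, 7.12 and 6.86 in control rats and 7.00, 6.83, 7.56, 7.13 and 7.53 with added eplerenone. Of the cirrhosis rats replicates 1 and 3 were highest there too. Cirrhosis replicates 2 and 4 lay above every control rat in the ribosomal mean. In the beta ring mean both lay, at 6.63 and 6.51, below every control rat. The part of this in the proteasome values was not tested.

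Among rats given eplerenone, replicate 5 held the highest value of its group for 25 of 44 members, and 12 members lay above the highest control rat in it, against 1 or 2 in the other rats of the group. These counts too were not made over all protein coding genes and are not read as particular to the members. Within animal labels that open with 15 (3 cirrhosis and 2 eplerenone rats) the median log2FC of eplerenone over the members was -0.44, with 39 of 44 lower. Over 13154 protein coding genes it was -0.01 there, with 6663 lower. The 3 cirrhosis rats of these labels include replicates 1 and 3. Within labels that open with 20 (2 and 3 rats) the members' median was -0.04, with 25 of 44 lower. Over protein coding genes it was 0.01 there, with 6260 lower. The difference between label groups passed the test for 0 of 44 members in edgeR's interaction test with Benjamini-Hochberg adjustment, as for 0% of 13154 protein coding genes, and 4 of 44 members had an unadjusted p under 0.05, as 12.2% of protein coding genes did (no other tool was run for it). The label prefix is not explained in the sources. Control rats carry other prefixes than both CCl4 groups, so in comparisons with control the prefix and the treatment cannot be told apart.

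The immunoproteasome genes, in which Psmb8, Psmb9 and Psmb10 replace the catalytic subunits after interferon signals, are not members and were set beside them. Psmb10 stood at 34.0, 23.5, 34.1 and 33.1 FPM in control rats, 87.3, 42.1, 103, 56.4 and 35.1 FPM in cirrhosis and 21.9, 17.1, 48.2, 26.5 and 38.8 FPM with added eplerenone. All cirrhosis rats lay above all control rats, replicates 1 and 3 furthest, and 3 of the 5 rats given eplerenone lay within or below the control range. Psmb10 was a DEG in cirrhosis against control, with a log2FC of 1.06 (SE 0.34, edgeR FDR 0.0408, DESeq2 FDR 0.0127). Its constitutive counterpart Psmb7 had a log2FC of -0.01. Psmb9 and Psmb8, counterparts of Psmb6 and Psmb5, had log2FC of 0.76 (SE 0.28) and 0.63 (SE 0.28) and were not DEG. Psmb9 passed in DESeq2 (FDR 0.0335) and not in edgeR (FDR 0.0680), and Psmb8 in neither (DESeq2 FDR 0.0706, edgeR FDR 0.112). In cirrhosis & eplerenone against cirrhosis the 3 genes had log2FC of -1.09, -0.77 and -0.72, none a DEG, and against control -0.03, -0.01 and -0.09. Summed over the 3 genes the level was 471, 216, 443, 287 and 280.4 FPM in cirrhosis and 220.2, 168, 239 and 183 FPM in control.

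Other genes of the route to the proteasome were taken from lists by role. Of 8 further particle genes tested, receptors, deubiquitinases and the core maturation factor Pomp among them, 0 passed in edgeR and 0 in DESeq2 in each of the 3 comparisons, while 0, 2 and 2 had an unadjusted p under 0.05 in edgeR for cirrhosis against control, eplerenone against cirrhosis and eplerenone against control, where 37.6, 14.5 and 20.9% of protein coding genes did. In the same order 20.6, 0.0147 and 5.33% of protein coding genes were DEG. Pomp had log2FC of 0.32 (SE 0.21) in cirrhosis against control and -0.56 (SE 0.19) in cirrhosis & eplerenone against cirrhosis. Both CCl4 groups did not overlap for Pomp, as for 0.947% of protein coding genes. Sem1, the other gene at that p between both CCl4 groups, had log2FC of 0.33 (SE 0.18) and -0.56 (SE 0.17), with overlap. Of 9 shuttle and VCP genes 1 was a DEG in cirrhosis against control, where 20.6% of protein coding genes were. This was Rad23b, a receptor that carries ubiquitinated proteins to the particle, which fell (-0.63, SE 0.20, edgeR FDR 0.0350, DESeq2 FDR 0.0121). It stood at 154, 174, 163 and 181 FPM in control and 87.9, 122, 83.6, 97.2 and 151 FPM in cirrhosis, every cirrhosis rat below every control rat.

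Of 10 genes of the NRF1 route 2 rose and 2 fell as DEG in cirrhosis, where 20.6% of protein coding genes were called. The small Maf genes Maff and Mafk, partners of NRF1 and NRF2 on DNA, rose by log2FC of 3.33 (SE 0.73) and 0.79 (SE 0.21). Maff stood at 1.21, 1.68, 0.733 and 0.763 FPM in control rats, 4.60, 6.08, 8.95, 33.4 and 2.44 FPM in cirrhosis and 9.97, 1.75, 9.96, 7.28 and 8.36 FPM with added eplerenone, and cirrhosis replicate 4 alone carried the highest value. Ddi2, the protease that releases NRF1 for transport to the nucleus, had a log2FC of -0.86 (SE 0.27) and stood at 349, 289, 295 and 251 FPM in control rats, 147, 143, 168, 158 and 201 FPM in cirrhosis and 369, 403, 115, 260.1 and 254 FPM with added eplerenone. Every cirrhosis rat lay below every control rat, and eplerenone replicate 3 was the lowest of all. Nfyb, a subunit of the CCAAT-binding factor, had a log2FC of -0.81 (SE 0.22). Nfe2l1 itself had -0.45 (SE 0.35) and Nfe2l2 -0.14 (SE 0.23), not DEG. In cirrhosis & eplerenone against control Maff (2.76) and Mafk (1.01) were DEG, where 5.33% of protein coding genes were. In cirrhosis & eplerenone against cirrhosis 0 of the 10 genes were DEG (0 by edgeR, 0 by DESeq2), where 0.0147% of protein coding genes were. There 1 of the 10 had an unadjusted p under 0.05 in edgeR, as 14.5% of protein coding genes did, and Ddi2 stood at 0.78 (edgeR FDR 0.312, DESeq2 FDR 0.135).

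Some cell type markers moved between control and cirrhosis, and in whole liver RNA fewer cells of a type and less RNA per cell cannot be told apart. Of 10 hepatocyte markers 1 fell (Hnf4a), of 9 stellate cell and myofibroblast markers 7 rose, of 6 cholangiocyte markers 6 rose, of 7 lymphocyte markers 3 rose, of 10 macrophage markers 1 fell, and of 7 endothelial markers 1 rose and 2 fell. These counts are of genes that passed in both tools, as 20.6% of protein coding genes did. By DESeq2 alone, where 28.2% of protein coding genes passed, 4 hepatocyte markers did, all lower. Of macrophage markers 3 did, Cd163 and Vsig4 lower and Cd68 higher. The counts of the other lists were the same. No marker listed was at 0 in all rats. The summed hepatocyte markers ran from 159587 to 176222 FPM for control, from 93036 to 160701 FPM for cirrhosis and from 87204 to 149982 FPM for cirrhosis & eplerenone. They stood at 93036, 118472, 94359, 100452 and 160701 FPM in cirrhosis replicates 1 to 5, a sum made up mostly of Alb. Alb itself had 57392, 86206, 56103, 74416 and 122840.0 FPM in the same rats. The single markers did not share an order of rats: replicates 1 and 3 were the lowest pair of cirrhosis for 2 of 10 hepatocyte markers and the highest pair for 2 of 10. The summed stellate cell markers were 557, 348, 583, 391 and 283 FPM in the same rats, against 152 to 252 FPM for control and 414 to 579.6 FPM for cirrhosis & eplerenone, and within cirrhosis replicates 1 and 3 were the highest pair in the sum and in 6 of 9 of its markers. Col3a1 held the largest part of this sum, with 264, 167, 272, 193 and 187 FPM in cirrhosis replicates 1 to 5. Its log2FC in cirrhosis & eplerenone against cirrhosis was 0.44, where the median of the 9 markers was -0.36. Lrat, also of this list, had a log2FC of -1.09 in cirrhosis against control and was not a DEG. Macrophage markers were 759.6, 194, 526, 353 and 437 FPM in cirrhosis, 341 to 601 FPM in control and 279.7 to 778 FPM in cirrhosis & eplerenone. The cholangiocyte sum ran from 14.4 to 23.6 FPM for control, from 46.4 to 142 FPM for cirrhosis and from 46.3 to 97.4 FPM for cirrhosis & eplerenone. The lymphocyte sum was 3.64 to 7.30, 7.55 to 16.9 and 4.82 to 13.8 FPM in the same order, and the endothelial sum 214 to 257, 150.4 to 315 and 186 to 251 FPM. Against control 3 stellate cell and 3 cholangiocyte markers also rose in cirrhosis & eplerenone with both tools, where 5.33% of protein coding genes were called. By DESeq2 alone 7 and 6 passed, where 10.8% of protein coding genes did. The part of these shifts in the proteasome values was not tested.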

How the data were processed

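The members and gene lists were chosen with earlier results of these data known. The authors mapped paired reads of 150 bp to rn6 with HISAT2 2.1.0 and counted them on exons with featureCounts, where reads that map to several places are counted at each, and deposited raw counts per gene with no normalization. Whether strand was used is not given in the sources used here, so reads of overlapping antisense genes cannot be told apart. All 14 sample columns were used and 0 were set aside. Control replicate 1 was not analysed here. The study set aside a control sample that stood apart from the other 4 in a principal component analysis, so the control spread is that of the remaining rats.

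Counts were filtered with filterByExpr (smallest count 10) and library sizes were scaled by TMM factors. A single model over all groups was fitted with edgeR 4.0.16 (quasi-likelihood test) and DESeq2 1.42.0 (Wald test) in R 4.3.3, without covariates, and FDR covered 14417 genes. The log2FC come from edgeR, and mean log2 FPM used a prior count of 2. The fits were tested on simulated data. No test was made over the members as a list. A further gene list of the pathway is not reported here.

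Values in every rat are given by rule for 21 members: the catalytic subunits, Psmd14 and Psmd4, the called members, and in each role the highest and lowest log2FC in cirrhosis against control. Psmg4, Psmd12 and Psmd9 were named for their values. Alternatives changed the tool, scaling, filter, biotypes and samples. The 250 promoter bases were matched by symbol to a RefSeq table of GRCr8, whose coordinates do not apply to rn6.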

Additional observations from a re-analysis of the deposited data

Results flagged for a closer look

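Dixon's test was run in 72 groups of 4 or 5 rats, over the named members, the core and regulatory means and their difference. It flagged 3 values far from the rest of their group, all of named members, where chance flags about 1 group in 20. Psmb4 stood at 201.5 FPM in eplerenone replicate 5, against 134.6 to 149.6 FPM in the other rats of that group. Psmc3ip stood at 4.825 FPM in control replicate 2, against 3.307 to 3.419 FPM in the other control rats, and at 4.817 FPM in eplerenone replicate 3, against 2.483 to 3.06 FPM in the rest of that group. Psmc3ip rested on 44 to 119 counts per rat.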

How the results depend on the processing

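The 2 members called in cirrhosis against control (20.6% of protein coding genes) became 4 with DESeq2 alone (28.2%; Psma3l, Psmc6, Psmg3 and Psmg4), 7 with total counts in edgeR (24.3%), 1 with DESeq2 size factors in edgeR (20.6%), without a filter (13.9%) and with at least 10 counts in every sample (17.8%), where Psmc6 was the one lost, 1 with cirrhosis replicates 1 and 3 both left out (7.35%; Psmd9, a setting added after seeing the data), and 0 to 4 with 1 rat left out (9.48 to 32.5%). The 1 member called in cirrhosis & eplerenone against control (5.33%) became 4 with DESeq2 alone (10.8%), 0 with total counts (9.69%), without a filter (3.81%) and with at least 10 counts in every sample (3.42%), 2 with protein coding genes only (5.39%), 2 with cirrhosis replicates 1 and 3 both left out (4.49%; Psma5 and Psmd9) and 0 to 3 with 1 rat left out (1.5 to 9.09%). With cirrhosis replicate 5 and eplerenone replicate 3 left out (4 rats per group), the counts were 3, 1 (Psmg3) and 0 in cirrhosis against control, cirrhosis & eplerenone against cirrhosis and cirrhosis & eplerenone against control, where 34.6, 9.22 and 4.94% of protein coding genes were called. The labels give no reason to leave out these rats, which had the lowest Acta2 of cirrhosis (2.26 against 14.6 to 30.0 FPM) and the highest of their eplerenone group (30.2 against 1.31 to 10.9 FPM), so nothing is read from these counts. The count of 0 in cirrhosis & eplerenone against cirrhosis stayed at 0 in the other settings and with each rat left out. Differences of particle means between groups moved by more than 1 pooled SD only with total counts, to 0.31 and 0.0228 for the core and 0.28 and 0.0929 for the regulatory particle, in cirrhosis and in cirrhosis & eplerenone against control. With cirrhosis replicates 1 and 3 both left out the moves stayed within that SD, yet the core difference went from 0.02 to -0.19 in cirrhosis against control and from -0.30 to -0.07 in cirrhosis & eplerenone against cirrhosis. With 1 rat left out the core mean differed from control by -0.06 to 0.12 in cirrhosis and by -0.33 to -0.25 in cirrhosis & eplerenone. No named gene that was called turned its sign. The cause of these differences was not tested.

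Replicate numbers are shared between groups, yet neither labels nor data pair the rats: deviations of rats with the same number correlated at -0.33 to 0.19. With the replicate number as a block 0 members were DEG in each comparison, against 2, 0 and 1 without the block, and the share of protein coding genes called was 12.4, 0 and 1.91% against 20.6, 0.0147 and 5.33%.

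Values rest on 4 or 5 rats per group, and a difference within the interval of a gene was not detectable at this size. Transcript lengths and a genome of the build of the counts were not used here, and reads of named copies were not separated.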
